A study of Mus musculus with 6 samples.

Results

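The proteasome is the protease complex that degrades ubiquitin-tagged proteins. Its genes were taken as all mouse genes whose symbol is Psm followed by a, b, c, d, e, f or g and a number, without pseudogenes. This rule uses no expression value, although it was set with earlier results of these data known. The annotation holds 48 such genes, of which 47 had a row among the 22969 gene identifiers of the count table, and 1 is not analysed here. RNA had been sequenced from hematopoietic stem cells of adult C57BL/6 bone marrow, sorted as lineage-negative, Sca-1+, c-Kit+ (LSK), CD150+ and CD48-. Of the 6 libraries, 3 came from Vav1-cre; Rbfox2-fl/fl mice, labelled Rbfox2-deleted, in which Cre driven by the blood-cell promoter Vav1 removes floxed Rbfox2, a regulator of alternative splicing, throughout the blood system, and 3 came from Rbfox2-fl/fl control mice, which carry the floxed alleles with no Cre named. About 500 cells went into each library by the full-length, PCR-amplified Smart-seq2 method. The series concerns how Rbfox2 acts on stem cell self-renewal through protein homeostasis.

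The 20S core is a barrel of alpha and beta rings: the alpha rings gate its entrance, and the beta rings carry the proteolytic sites inside. The 19S regulatory particle caps the barrel. Its lid removes ubiquitin from the substrate, and the ATPase ring of its base unfolds the chain and threads it into the core. Interferon-induced beta subunits can replace the catalytic ones to form the immunoproteasome, other activators can replace the 19S cap, and dedicated chaperones assemble the parts. Hematopoietic stem cells make little protein for a blood progenitor and are sensitive to the build-up of misfolded protein.

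Libraries 1, 2 and 3 labelled Rbfox2-deleted held 23474895, 35650284 and 33345370 counts, against 47895459, 51643037 and 55151484 in controls 1, 2 and 3. In libraries 1, 2 and 3 labelled Rbfox2-deleted 14154, 15950 and 15972 genes were detected, against 16675 to 17087 in controls. Library 1 labelled Rbfox2-deleted stood apart from all others. Its Spearman correlation with each of them was 0.774 to 0.777, against 0.895 to 0.963 for the pairs without it. Controls 1 and 3 were far closer to each other than any other pair of libraries (chi-square per degree of freedom 3.44, against 156 to 808), so their counts were summed and taken as 1 sample, which left 3 samples labelled Rbfox2-deleted and 2 labelled control. Rbfox2 itself had 2, 87 and 10 counts in the libraries labelled Rbfox2-deleted, against 238, 11 and 250 in those labelled control. The second library of each group went against its label, so directions below are those of the labels and not of a checked deletion. The sex genes also divided the libraries. Xist had 2821, 26 and 2467 counts in the libraries labelled Rbfox2-deleted and 49, 3 and 55 in controls. The Y-linked gene Eif2s3y had 0, 1042 and 0 counts, against 1419, 576 and 1560 in controls. Libraries 1 and 3 labelled Rbfox2-deleted thus read as female and every other library as male, so sex and label are largely confounded. A fit with sex as a covariate compares the labels only through library 2 labelled Rbfox2-deleted and the controls. Of the markers that define the sort, Kit lay between 86.8 and 180 CPM in samples labelled Rbfox2-deleted and between 79.4 and 98.9 CPM in controls, Ly6a (Sca-1) between 311 and 391.8 CPM against 645 and 875 CPM, and Slamf1 (CD150) between 19.5 and 51.6 CPM against 10.7 and 45.1 CPM, while Cd48 was at 0 in every sample but 1, which had 0.0772 CPM. Summed over each list, the 5 megakaryocyte markers lay between 52.2 and 220 CPM in samples labelled Rbfox2-deleted and 277 and 306 CPM in controls, the 5 erythroid markers between 43.9 and 391 CPM against 79.0 and 140.3 CPM, the 8 myeloid markers between 405 and 532 CPM against 548 and 813 CPM, the 4 B cell markers between 127 and 212 CPM against 226 and 316 CPM, the 5 T and NK cell markers between 98.3 and 199 CPM against 86.6 and 118 CPM, and the 5 stromal and endothelial markers between 13.9 and 38.6 CPM against 7.93 and 10.3 CPM. Car1 was at 0 in every sample, Mpo, Pax5 and Cd3e were each under 1 CPM, and Prtn3, Cd79b and Pecam1 held most of their lists' sums in every sample. Of the T and NK cell list, Nkg7 lay between 80.1 and 92.3 CPM in samples labelled Rbfox2-deleted and at 104 and 82.6 CPM in controls, and Klrb1c reached 119 CPM in the first of these libraries. The part of the marker differences in the results below was not tested.

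Among the proteasome genes the core and its cap lay on opposite sides of control. Genes of the 20S core were mostly lower in samples labelled Rbfox2-deleted than in controls, and no single gene passed the test across genes. The 17 genes of the 19S base and lid with a Psm symbol were mostly higher. The base and lid subunits Adrm1 and Sem1, which lack such a symbol, lay below control (log2 fold changes -0.23 and -0.80). With a correction for transcript length the core no longer lay to one side, with 7 of its 15 genes above control and 8 below (median log2 fold change -0.10, against -0.34 without it), while 16 of the 17 base and lid genes lay above it (median 0.42, against 0.79 uncorrected). Fold changes are log2 ratios of samples labelled Rbfox2-deleted over control from edgeR's quasi-likelihood test, and a gene is called when its Benjamini-Hochberg adjusted p over 12350 genes is under 0.05. None of the 46 proteasome genes tested was called, and the share of all genes called was 0.0%. At an unadjusted p under 0.05, 6 proteasome genes were higher and 7 were lower, against 5.33% and 4.56% of all genes. DESeq2, run as an alternative, called 0 proteasome genes, against 1.67% of all genes higher and 1.7% lower, with the smallest adjusted p values at Psmd5 (0.092) and Psmb5 (0.0968). Samples of the 2 groups did not overlap for 13 genes higher and 9 genes lower, against 14.9% and 17.2% of all genes. In bulk RNA, fewer cells of a type and less RNA per cell cannot be told apart.

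**Figure D1:**
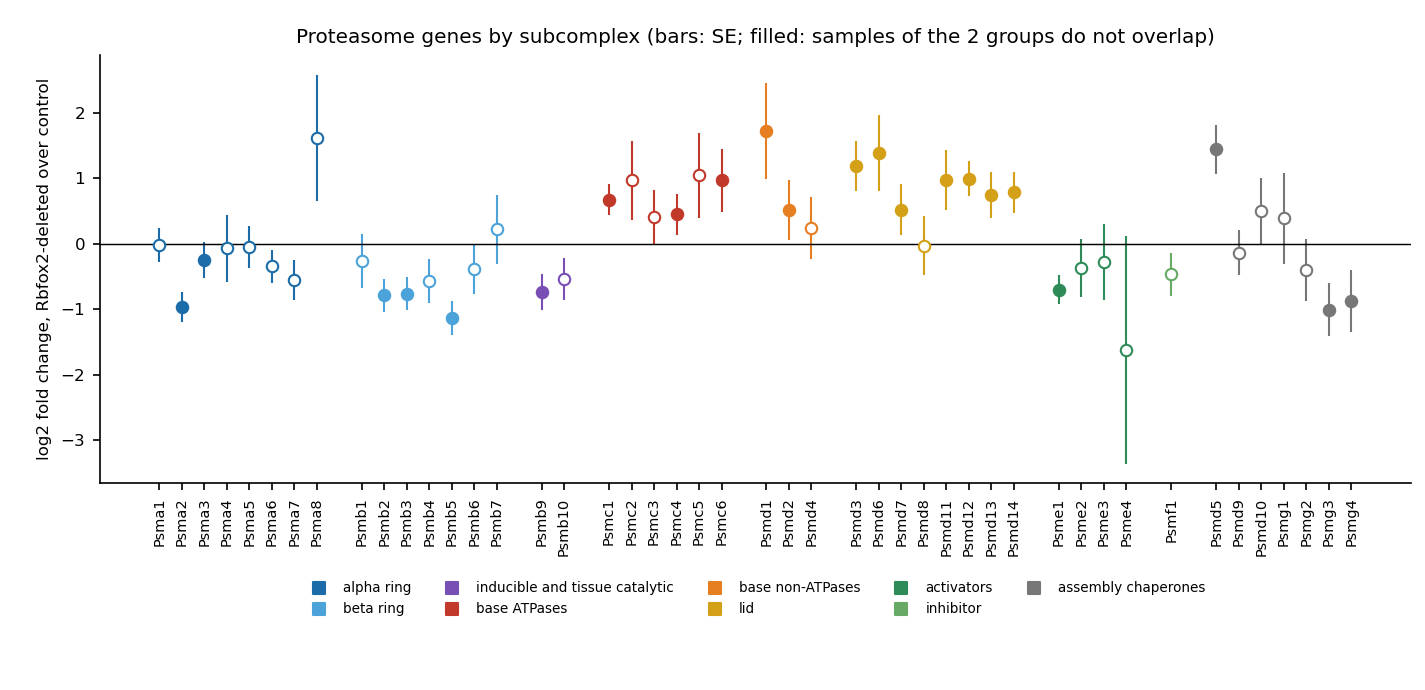
Log2 fold change (samples labelled Rbfox2-deleted over control, vertical axis) of the 46 proteasome genes tested, grouped by subcomplex along the horizontal axis; bars are standard errors from edgeR, and filled points mark genes whose samples do not overlap between the groups. The 17 base and lid genes lie above 0 except Psmd8, and 13 of the 15 alpha and beta ring genes lie below 0.

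Upstream sequence is shown for Psmb5 and Psmd12, the gene of the core and the gene of the lid with the smallest p. The sequences are from RefSeq (GRCm38.p6), 5′ to 3′ on the strand of the gene, and run to the last base before the annotated transcript: 223 bases for Psmb5 (chr14:54618023-54618245, minus strand) and 206 bases for Psmd12 (chr11:107479278-107479483, plus strand). Capitals mark the core of the antioxidant response element, TGACNNNGC on either strand, which Nfe2l1 and its relatives bind; in Psmd12 the match is on the opposite strand.
Psmb5: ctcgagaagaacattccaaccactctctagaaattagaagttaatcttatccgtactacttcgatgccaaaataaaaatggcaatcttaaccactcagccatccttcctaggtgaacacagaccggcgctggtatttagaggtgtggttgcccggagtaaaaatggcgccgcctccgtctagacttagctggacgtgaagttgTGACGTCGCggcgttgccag
Psmd12: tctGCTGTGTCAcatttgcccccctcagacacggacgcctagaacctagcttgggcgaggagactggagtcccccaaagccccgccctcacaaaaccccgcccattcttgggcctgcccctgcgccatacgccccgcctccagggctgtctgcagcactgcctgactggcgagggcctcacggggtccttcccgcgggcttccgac

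The match starts at position -47 of the RefSeq start in Psmb5 and at position -247 in Psmd12. In the 250 bases before the start, 5 of the 39 proteasome genes with a RefSeq entry held it (Psmb5, Psmb6, Psmc6, Psmd12 and Psmd9), which is 12.8%, against 11.5% of 27025 genes. Both sides of the particle were among them, with 2 of 11 core genes and 2 of 14 base and lid genes. The CCAAT box, CCAAT on either strand, was in 14 (35.9%), against 37.5% of all genes. The 2 motifs can share an end base, and a match describes these letters only.

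The standard core has 3 catalytic subunits, whose fold changes were not tested against each other. Psmb5, which carries the chymotrypsin-like site, had 167, 168 and 205 CPM in samples 1, 2 and 3 labelled Rbfox2-deleted, against 355 CPM in control 2 and 432 CPM in the sum of controls 1 and 3. Every value of the first group lay below both controls, with a log2 fold change of -1.13 (SE 0.26, edgeR adjusted p 0.387). Psmb5 (ENSMUSG00000022193, chr14:54614119-54618022, minus strand, mm10) has 1 near-identical pseudogene and holds the microRNA gene Mir686 in its exon sequence. Psmb6, which carries the caspase-like site, had 1724, 1010.4 and 769.8 CPM in samples labelled Rbfox2-deleted, against 1782 and 1269 CPM in controls, and the groups overlapped (log2 fold change -0.39, SE 0.39, edgeR adjusted p 0.883). Psmb7, which carries the trypsin-like site, had 319, 135 and 99.98 CPM in samples labelled Rbfox2-deleted, against 157 and 159 CPM in controls. Its first sample lay above both controls and the other 2 lay below them (log2 fold change 0.22, SE 0.53). Without that first sample the fold changes of Psmb5, Psmb6 and Psmb7 were -1.09, -0.79 and -0.44. Reads of Psmb7 cannot be told apart from those of Nek6 where the 2 genes overlap on opposite strands.

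The structural beta subunits were mostly lower. Of the 7 beta ring genes, 6 were lower in samples labelled Rbfox2-deleted than in controls and 1 was higher, with a median log2 fold change of -0.57. The median was 0.11 over all genes tested and -0.59 over the genes under 1200 bases, and beta ring genes had a median length of 899 bases. Psmb2 averaged 991 ± 61.2 CPM in samples labelled Rbfox2-deleted and 1711 ± 477 CPM in controls (SD, n = 3 and n = 2), and its samples did not overlap (log2 fold change -0.79, SE 0.25, edgeR adjusted p 0.41). Psmb3 averaged 405 ± 42.9 CPM against 688 ± 159 CPM in controls, again with no overlap (log2 fold change -0.76, SE 0.25, edgeR adjusted p 0.415), although 3 near-identical pseudogenes make its count uncertain. Psmb1 and Psmb4 lay at -0.26 and -0.57 on the log2 scale with overlapping samples, and at -0.76 and -0.90 without the first library labelled Rbfox2-deleted.

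In the alpha ring, which opens and closes the entrance of the core, Psma2 stood lowest. Its level was 396, 343 and 445 CPM in samples labelled Rbfox2-deleted, against 787 and 759 CPM in controls. All 3 samples lay at close to the same level and well under both controls (log2 fold change -0.97, SE 0.23, edgeR adjusted p 0.387). Across the 8 alpha ring genes, 7 were lower and 1 was higher, and the median log2 fold change was -0.16, or -0.43 without the first library labelled Rbfox2-deleted. Psma3 did not overlap either, by a small margin, at 233 ± 35.7 CPM against 276 ± 27.0 CPM in controls, and it has 4 near-identical genes. Psma1, Psma4 and Psma5 differed by less than their standard errors, at -0.013, -0.070 and -0.052, and Psma6 and Psma7 lay at -0.34 and -0.56. Without the first library Psma1, Psma4 and Psma5 lay at -0.20, -0.71 and -0.36. Psma4 has 1 near-identical pseudogene and Psma5 has 2, which makes their counts uncertain. The 1 gene above control was Psma8, which encodes the testis form of the Psma7 position. It had 10.6, 34.6 and 56.7 CPM in samples labelled Rbfox2-deleted, against 9.11 and 13.0 CPM in controls, so its first sample fell between the controls and the other 2 above them (log2 fold change 1.62, SE 0.96, edgeR adjusted p 0.698).

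Base and lid genes ran the other way. All 6 ATPases of the base, which unfold substrates, were higher in samples labelled Rbfox2-deleted than in controls, with a median log2 fold change of 0.82. Samples did not overlap for Psmc1, Psmc4 and Psmc6, against 14.9% of all genes higher without overlap. The ATPase genes had a median length of 1613.5 bases, and all genes around 1617 bases had a median log2 fold change of 0.30. Psmc1 had 342, 376 and 378 CPM in samples labelled Rbfox2-deleted, against 223 and 236 CPM in controls. The spread within each group was small beside the gap between them (log2 fold change 0.67, SE 0.24, edgeR adjusted p 0.445), but 2 near-identical pseudogenes make its count uncertain. For the other 5 the first library labelled Rbfox2-deleted held the highest value, as for Psmc5 with 1035, 336 and 241 CPM against 235 and 286 CPM in controls. Without that library the median of the 6 ATPases was 0.15, with 5 of them above control. Psmc2, Psmc3, Psmc4, Psmc5 and Psmc6 had log2 fold changes of 0.97, 0.40, 0.45, 1.05 and 0.97 with it, and of 0.14, -0.086, 0.15, 0.14 and 0.53 without it.

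Of the base subunits that are not ATPases, Psmd1 and Psmd2 are the large scaffolds and Psmd4 is a ubiquitin receptor. Psmd1 had 102, 42.3 and 31.1 CPM in samples labelled Rbfox2-deleted, against 18.6 and 16.7 CPM in controls. Each of the 3 lay above both controls, and the first was more than the other 2 together (log2 fold change 1.73, SE 0.73, edgeR adjusted p 0.525; 1.04 without the first). Reads of Psmd1 cannot be told apart from those of the overlapping gene Gm21972 where the 2 genes share exon sequence. Psmd2 averaged 64.8 ± 8.61 CPM against 45.3 ± 5.35 CPM in controls without overlap (log2 fold change 0.52), but 1 near-identical pseudogene makes its count uncertain. Psmd4 lay at 0.24 with overlapping samples. Psmd4 turned to -0.39 without the first library, since it had 1061, 394 and 419 CPM in samples labelled Rbfox2-deleted, against 510.4 and 545 CPM in controls.

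The lid lay mostly above control. Of its 8 genes, 7 were higher in samples labelled Rbfox2-deleted than in controls, and the median log2 fold change was 0.88. Samples of the 2 groups did not overlap for any of those 7, against 14.9% of all genes higher without overlap. Lid genes had a median length of 1742.5 bases, and all genes around 1617 and 1944 bases had median log2 fold changes of 0.30 and 0.66. Without the first library labelled Rbfox2-deleted the median was 0.52. Psmd12, a scaffold of the lid, had 249, 288 and 235 CPM in samples labelled Rbfox2-deleted, against 124 and 134 CPM in controls. Its lowest value in the first group lay well over its highest control (log2 fold change 0.996, SE 0.27, edgeR adjusted p 0.387). Psmd3 had 159, 127 and 111 CPM against 48.4 and 67.3 CPM in controls, again with every sample apart (log2 fold change 1.19, SE 0.39, edgeR adjusted p 0.413). Psmd14, the metalloprotease that cuts ubiquitin from the substrate, averaged 212 ± 45.5 CPM in samples labelled Rbfox2-deleted and 123 ± 1.13 CPM in controls (SD, n = 3 and n = 2; log2 fold change 0.79, SE 0.31, edgeR adjusted p 0.487), and Psmd7, its partner in the lid, 515 ± 233 CPM against 359 ± 4.18 CPM (log2 fold change 0.52). Psmd6, Psmd11 and Psmd13 had log2 fold changes of 1.39, 0.98 and 0.75, each without overlap. Psmd11 has 2 near-identical genes and Psmd13 shares 329 bases of exon with Sirt3 on the other strand, which makes their counts uncertain. Without the first library Psmd6, Psmd7, Psmd11 and Psmd13 lay at 0.63, 0.067, 0.42 and 0.45, while Psmd12 and Psmd3 lay at 1.007 and 1.03. The eighth, Psmd8, had 596, 257 and 234 CPM in samples labelled Rbfox2-deleted, against 350 and 389 CPM in controls, with 1 sample above and 2 below (log2 fold change -0.029, SE 0.45; -0.60 without the first).

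**Figure D2:**
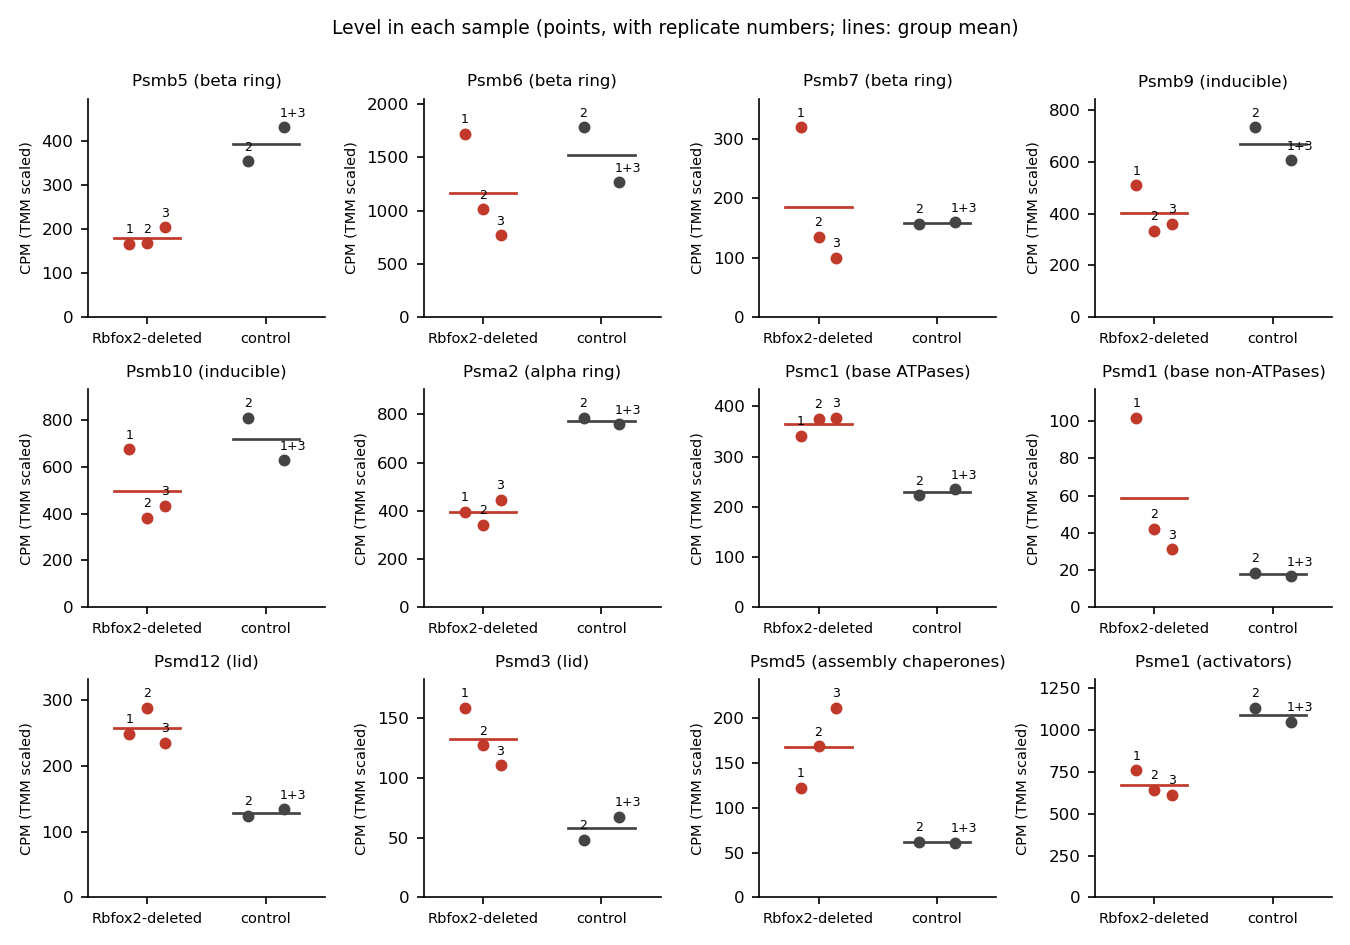
Level in each sample (CPM after TMM scaling, vertical axis from 0) of 12 proteasome genes; points are samples with their replicate numbers, samples labelled Rbfox2-deleted left of controls, and lines are group means. For Psmb5, Psma2, Psmb9 and Psme1 all 3 samples labelled Rbfox2-deleted lie under both controls, and for Psmc1, Psmd1, Psmd12, Psmd3 and Psmd5 all 3 lie over them.

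Set against each other within a library, core and cap stood in a different proportion in the 2 groups. The 15 core genes summed to 10909, 7182 and 7147 CPM in samples labelled Rbfox2-deleted, against 13102 and 10153 CPM in controls. The 17 base and lid genes summed to 8943, 4478 and 4129 CPM, against 3745 and 3853 CPM. Their ratio, which does not depend on a library's scaling factor, was 1.22, 1.60 and 1.73 in samples labelled Rbfox2-deleted and 3.50 and 2.64 in controls (means 1.52 ± 0.27 and 3.07 ± 0.61, SD). No sample of one group reached the other. Over single genes the median of the core minus that of the base and lid, each relative to the control mean, was -1.20, -1.15 and -1.10 on the log2 scale in the 3 samples labelled Rbfox2-deleted. The controls had 0.15 and -0.15, which mirror each other because each gene was set relative to their own mean. The values of the 3 samples labelled Rbfox2-deleted were close to each other although the first library stood apart on both sides: its core median was -0.077 and its base and lid median 1.13, against -0.63 and -0.66, and 0.52 and 0.44, in the other 2. On the same scale the median of all genes tested was -0.45, -0.018 and 0.054 in samples 1, 2 and 3. The core median thus lay above that of all genes in the first sample and below it in the other 2. None of these values takes account of transcript length. In the fits across genes the median of the core minus that of the base and lid was -1.13, and -0.52 with the length correction.

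**Figure D3:**
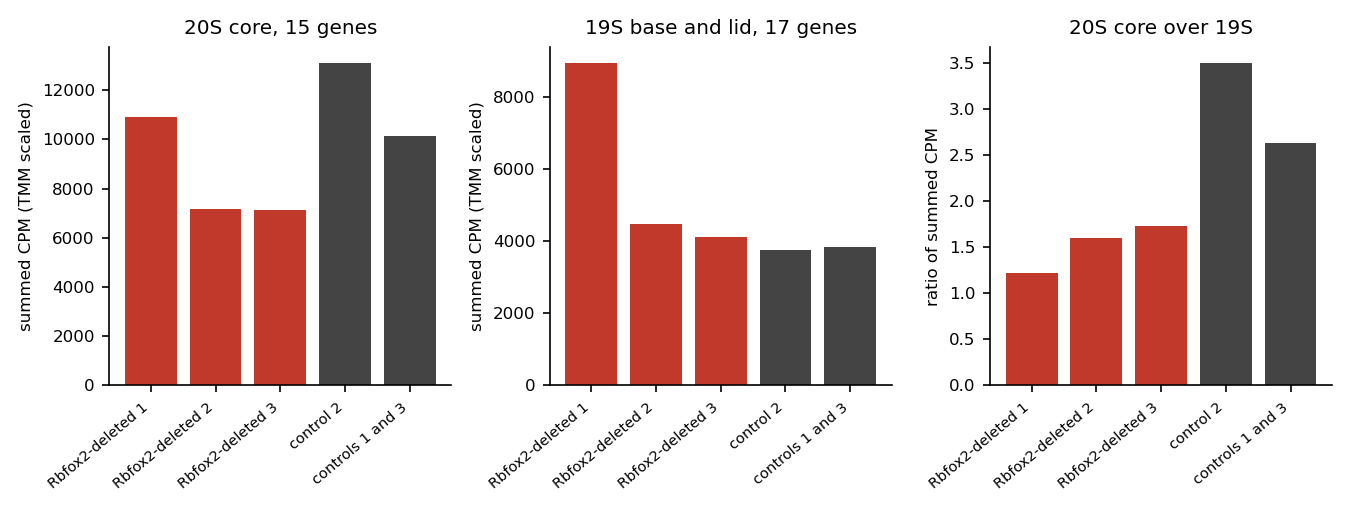
Summed level (CPM, axes from 0) of the 15 genes of the 20S core and the 17 genes of the 19S base and lid, and the ratio of the 2 sums, in each of the 5 samples, those labelled Rbfox2-deleted left of controls. The ratio lies between 1.22 and 1.73 in the samples labelled Rbfox2-deleted and at 3.50 and 2.64 in the controls, although the first Rbfox2-deleted library has the highest base and lid sum.

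Counted over classes, 13 of the 15 core genes had a fold change below 0, with a median of -0.34, and 16 of the 17 base and lid genes had one above 0, with a median of 0.79. Over all genes tested 53.5% lay above 0 and 46.5% below, and of the genes under 1200 bases 78.3% lay below with a median of -0.59. With the length correction 7 core genes lay above and 8 below. At an unadjusted p under 0.05, 4 core genes were lower and 0 higher, and 5 base and lid genes were higher and 0 lower, against 4.56% of all genes lower and 5.33% higher. Without the first library labelled Rbfox2-deleted, 14 of 15 core genes were below control with a median of -0.76, and 14 of 17 base and lid genes above with a median of 0.45. At an unadjusted p under 0.05, 16 proteasome genes were then lower and 8 higher, against 11.9% and 11.8% of all genes, and samples did not overlap for 24 lower and 14 higher, against 26.8% and 27.7%.

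The inducible catalytic subunits followed the core. Psmb9, which replaces Psmb6 in the immunoproteasome, had 510.3, 334 and 362 CPM in samples labelled Rbfox2-deleted, against 734 and 608 CPM in controls. All 3 lay below both controls (log2 fold change -0.74, SE 0.28, edgeR adjusted p 0.467). Psmb9 shares 212 bases of exon with Tap1 on the other strand, where reads cannot be assigned. Psmb10, which replaces Psmb7, had 675, 382 and 434 CPM against 810 and 627 CPM in controls, with its first sample between the controls (log2 fold change -0.53, SE 0.32, edgeR adjusted p 0.698). Per length, Psmb9 stood at 0.17, 0.20 and 0.28 of Psmb6 in samples labelled Rbfox2-deleted, against 0.24 and 0.28 in controls, and Psmb10 at 1.87, 2.51 and 3.84 times Psmb7, against 4.57 and 3.49 times. Both ratios overlapped between the groups. Psmb11, the subunit of the thymus proteasome, did not pass the filter on low counts, with 12, 5 and 5 counts in the libraries labelled Rbfox2-deleted and 15, 10 and 12 counts in controls.

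Among the alternative activators, Psme1 and Psme2 form the interferon-induced cap, Psme3 its nuclear relative, and Psme4 the single-chain nuclear activator. Psme1 had 761, 644 and 615 CPM in samples labelled Rbfox2-deleted, against 1135 and 1051 CPM in controls. Its groups did not overlap (log2 fold change -0.70, SE 0.22, edgeR adjusted p 0.402). Psme2 had 520.0, 255 and 233 CPM against 546 and 318 CPM in controls, and 1 of its 3 samples lay between the controls (log2 fold change -0.36, SE 0.44, edgeR adjusted p 0.908). It has 1 near-identical gene, which makes its count uncertain. Psme3 had 27.7, 70.1 and 72.9 CPM against 80.7 and 56.9 CPM, so that the groups overlapped (log2 fold change -0.27, SE 0.58), and without the first library its fold change was 0.039. Psme4 was barely detected, with 2, 9 and 70 counts in the libraries labelled Rbfox2-deleted and 127, 66 and 186 in controls, and its fold change of -1.61 had a standard error of 1.74. The inhibitor Psmf1, known to block the core in vitro, had 165, 143 and 110 CPM in samples labelled Rbfox2-deleted, against 223 and 161 CPM in controls, with its first sample just over the lower control (log2 fold change -0.46, SE 0.33).

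Of the 7 assembly chaperones, 3 lay above control and 4 below (median log2 fold change -0.13), and without the first library labelled Rbfox2-deleted 1 lay above and 6 below (median -0.57). Psmd5, one of the chaperones of the ATPase ring, had 122, 169 and 212 CPM in samples labelled Rbfox2-deleted, against 62.4 and 61.0 CPM in controls. Every sample of the first group lay well over both controls (log2 fold change 1.44, SE 0.38, edgeR adjusted p 0.387). Its fellow base chaperones Psmd9 and Psmd10 lay at -0.13 and 0.51 with overlapping samples, and at -0.27 and -0.078 without the first library. Of the 4 chaperones of the alpha ring, Psmg3 had 49.6, 90.9 and 59.6 CPM in samples labelled Rbfox2-deleted, against 131 and 136 CPM in controls, all below (log2 fold change -1.003, SE 0.40, edgeR adjusted p 0.495), although it shares exon sequence with Gm26938. Psmg4 averaged 96.0 ± 40.3 CPM against 176 ± 37.6 CPM in controls, also without overlap (log2 fold change -0.87), while Psmg1 and Psmg2 lay at 0.39 and -0.40 with overlap, and at -0.60 and -0.85 without the first library.

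Genes that serve the proteasome without a Psm symbol were taken as a list of 21 for maturation, regulation and delivery of substrates, all tested. None was called; 13 lay above control and 8 below (median log2 fold change 0.25), against 53.5% and 46.5% of all genes. At an unadjusted p under 0.05, 1 was higher and 2 were lower, against 5.33% and 4.56%. Uchl5, the deubiquitinase bound to the base, had 282, 192 and 166 CPM in samples labelled Rbfox2-deleted, against 89.1 and 111 CPM in controls, with no overlap (log2 fold change 1.09, SE 0.36, edgeR adjusted p 0.414). Sem1, the smallest subunit of the lid, lay below control, unlike 7 of the 8 lid genes above, with 261, 316 and 296 CPM in samples labelled Rbfox2-deleted and 558 and 455 CPM in controls (log2 fold change -0.80, SE 0.24, edgeR adjusted p 0.387). Adrm1, a ubiquitin receptor of the base, also lay below both controls, by a small margin. It had 110, 104 and 121 CPM against 138 and 124 CPM in controls (log2 fold change -0.23, SE 0.31). Neither is among the 17 base and lid genes or in their sums. Pomp, the chaperone that matures the core, sat with the core at 470.0 ± 42.4 CPM against 788 ± 199 CPM in controls (log2 fold change -0.75, SE 0.25, edgeR adjusted p 0.429). Nfe2l1, the transcription factor that raises proteasome genes when the proteasome is inhibited, had 53.0, 5.37 and 5.56 CPM against 5.91 and 7.10 CPM in controls, so only its first sample lay above them.

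A second list held 10 genes for induction of the immunoproteasome and loading of its peptides, all tested. None was called; 6 lay above control and 4 below (median 0.20), and the unadjusted p was under 0.05 for 2 above and 0 below, against 5.33% and 4.56% of all genes. Tap2, a chain of the peptide transporter, had 75.0, 110.0 and 126 CPM in samples labelled Rbfox2-deleted, against 37.9 and 50.2 CPM in controls (log2 fold change 1.23, SE 0.44, edgeR adjusted p 0.454). Tap1, its partner chain, averaged 81.4 ± 18.2 CPM against 42.7 ± 10.5 CPM in controls (log2 fold change 0.93), so neighbours Tap1 and Psmb9 lay on opposite sides. B2m, the light chain of class I molecules, had 9921, 6409 and 6580 CPM in samples labelled Rbfox2-deleted, against 12746 and 11194 CPM in controls (log2 fold change -0.65, SE 0.28, edgeR adjusted p 0.528).

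Transcript length moved with the split between core and cap. The median annotated transcript was 1165 bases for core genes and 1636 bases for base and lid genes, against 2809 bases over all genes tested. All genes in the shortest length bin (median 785 bases) had a median log2 fold change of -0.60, those around 1255 bases one of -0.30, those around 1617 bases one of 0.30, and those around 2270 bases one of 0.68. In longer bins the median was lower again, at 0.34 around 2984 bases, 0.048 around 4600 bases and -0.13 in the longest, and over all genes the Spearman correlation with length was 0.029. Of the 1413 genes tested under 1200 bases, 1107 lay below control. Across the 46 proteasome genes the fold change had a Spearman correlation of 0.48 with transcript length and of 0.66 with coding length, given as a description over genes that share the same libraries. In an alternative chosen after the data were seen, only members of 1100 to 1700 bases were kept. The 6 core genes then had a median of -0.033, the 9 base and lid genes one of 0.52, and the 1670 genes of that length one of -0.066. Their median lengths were 1192, 1540 and 1420.5 bases, so length still differed between core and cap within the window. With a correction for length in the fit, 7 core genes lay above and 8 below control (median -0.10), and 16 of the 17 base and lid genes lay above (median 0.42), against -0.037 over all genes. Psma2 and Psma3, at 2911 and 2846 bases, have the longest annotated transcripts of the core but coding lengths of 702 and 765 bases, against a core median of 744. Without both, the correlations over 44 genes were 0.57 with transcript length and 0.65 with coding length.

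**Figure D4:**
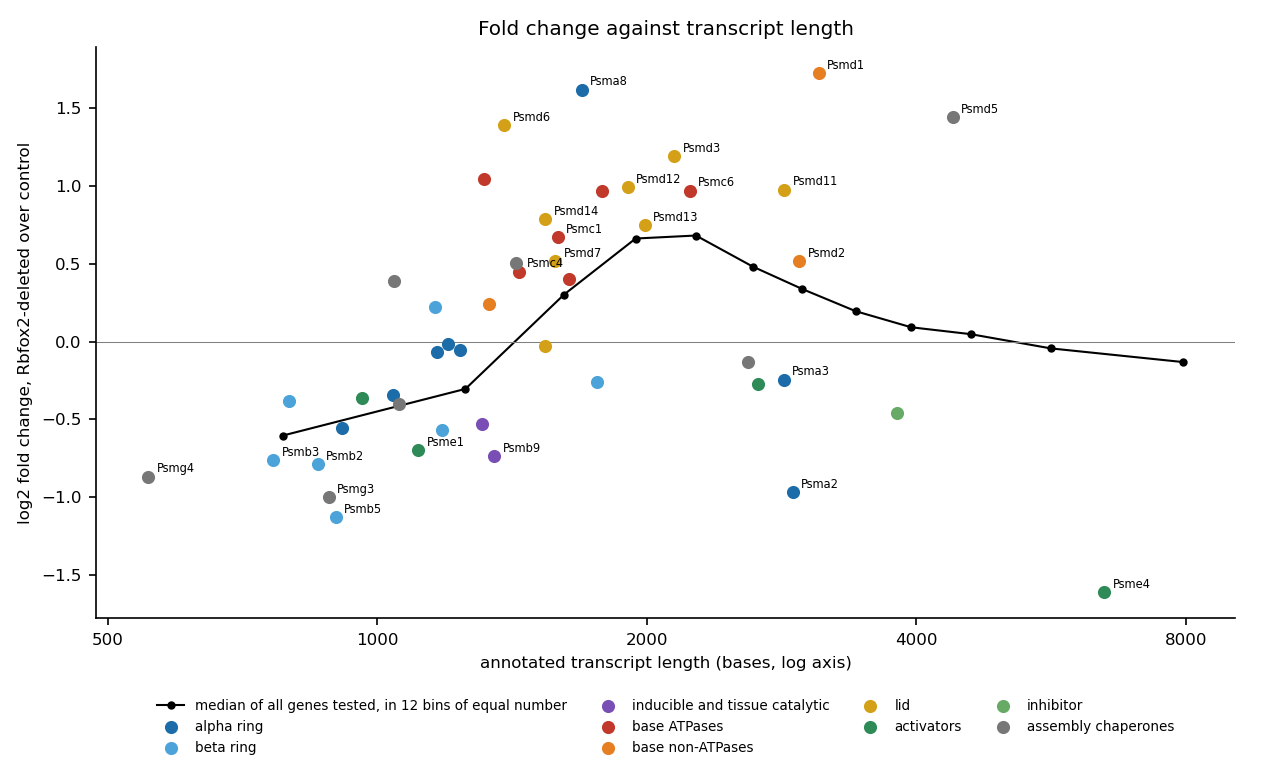
Log2 fold change (samples labelled Rbfox2-deleted over control) of the 46 proteasome genes against annotated transcript length in bases on a log axis, coloured by subcomplex; the black line joins medians of all genes tested in 12 bins of equal number. The line lies at -0.60 in the shortest bin, at 0.68 around 2270 bases and at -0.13 in the longest; most core genes sit at the short end and most base and lid genes where the line is above 0.

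**Figure D5:**
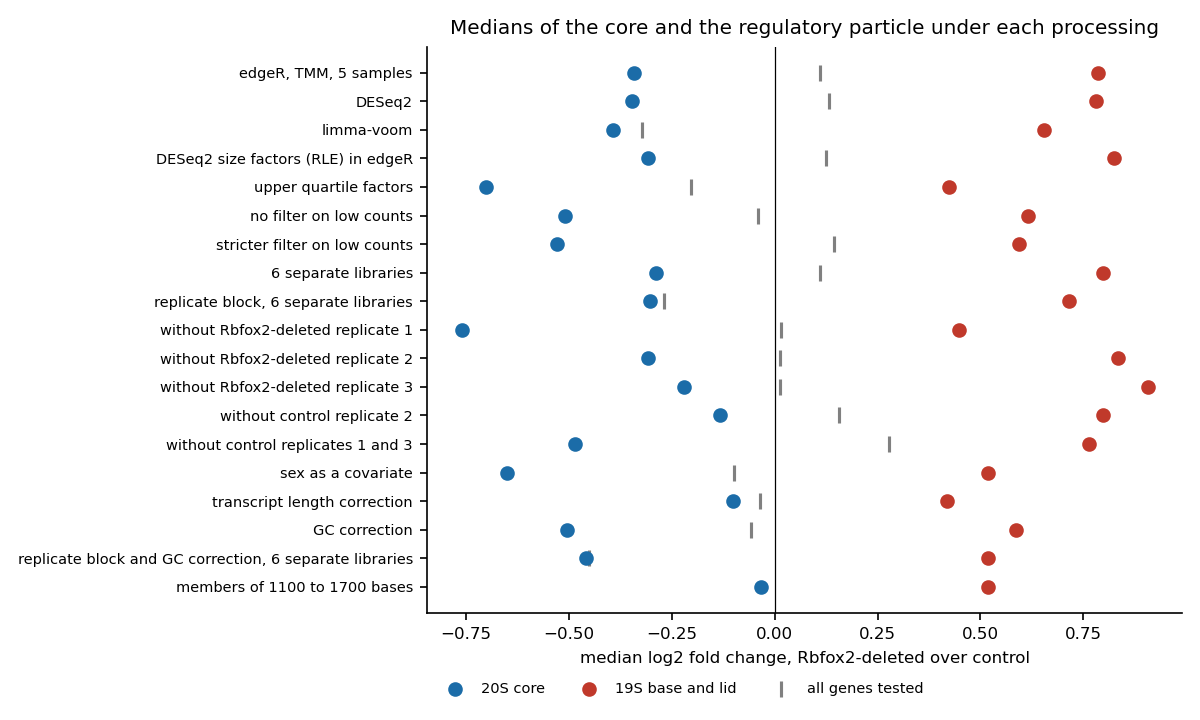
Median log2 fold change (samples labelled Rbfox2-deleted over control, horizontal axis) of the 15 core genes, the 17 base and lid genes and all genes tested, under each processing named on the vertical axis; the last row keeps members of 1100 to 1700 bases. The core median lies below 0 and the base and lid median above 0 under every processing shown, and they come closest with the correction for length. The median of all genes moves too. The core median less that of all genes is only -0.070 with limma-voom, -0.034 with the replicate block, -0.0086 with block and GC correction and -0.065 with the length correction.

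Levels also set the subunits apart, here as CPM per kilobase of transcript. In samples labelled Rbfox2-deleted the core genes ran from 20.1 for Psma8 to 1730 for Psma7 (median 371), against 6.53 to 2546 for the same genes in controls (median 438). Base and lid genes had a median of 158 in samples labelled Rbfox2-deleted and 80.7 in controls, with Psmd1 lowest at 18.8 against 5.67 in controls.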

How the data were processed

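The authors deposited counts of reads per gene without normalization. Build mm10 and the tools Trimmomatic 0.39, featureCounts and DESeq2 1.36.0 are named, per the submitters' processing notes. No aligner, annotation, strand setting or treatment of reads with several matches is given in the sources used here, so genes with near-identical copies (at least 95% identity over 200 bases) or overlapping neighbours have uncertain counts. Of 23043 rows, 134 shared 60 identifiers (0.449% of counts) and were summed; no proteasome gene was among them. Symbols were found for 22831 identifiers.

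The members, lists and tests were chosen with earlier results of these data known. Controls 1 and 3 were summed as 1 sample. Counts were tested on 5 samples with edgeR 4.0.16 in R 4.3.3 (filterByExpr, minimum count 10 and total 15; TMM; glmQLFTest, two-sided; Benjamini-Hochberg), and were checked on simulated counts. SE came from the fold change and its F statistic. The common dispersion was 1.09, a coefficient of variation of 104%. CPM were scaled by TMM factors, and medians by library used log2(CPM + 0.5). The labels give separate mice, but p-values measure only the spread between these samples. Alternatives were DESeq2 1.42.0, limma-voom (3.58.1), other scalings and filters, 6 separate libraries, each sample left out, a replicate block, sex read from Xist (over 1000 counts), and loess corrections (span 0.3) for length and GC. Lengths are of the longest principal transcript of a GENCODE annotation of mm10.

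Values in every sample are given for catalytic subunits, activators and the inhibitor, and for the member of each class with the smallest p in each direction; other members are named where groups did not overlap, or with their fold change. Chosen after values were seen were Psmc5, Psmd4, Pomp, Nfe2l1, Tap1 and Adrm1. Of the B cell markers listed, 1 is not reported here and was left out of their sum.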

Additional observations from a re-analysis of the deposited data

How the results depend on the processing

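The count of proteasome genes called was 0 in each of the 17 alternatives, and that of all genes was 0 in all but DESeq2 (477). Proteasome genes higher at an unadjusted p under 0.05 numbered 2 with upper quartile factors, with sex as a covariate and with the length correction, 3 without a filter and 10 with 6 separate libraries. Genes lower numbered 2 with DESeq2 and with sex, 13 with upper quartile factors, 11 with the stricter filter, 3 with the length correction and 12 with replicate block and GC correction. Leaving out a library gave 0 to 8 higher and 2 to 16 lower, and leaving out controls 1 and 3 gave 0 and 4; there the lone control is assumed to vary like the other group. The median of all proteasome genes, -0.040, reversed to 0.0090 with DESeq2 size factors and 0.11 with the length correction, and ran from -0.38 to 0.13 with a library left out. The core median (-0.34) was -0.70 with upper quartile factors, -0.65 with sex, -0.10 with the length correction and -0.76 to -0.13 with a library left out, and the base and lid median (0.79) was 0.42, 0.52, 0.42 and 0.45 to 0.91. The activator median was -0.91 with upper quartile factors, -0.76 with sex, -0.75 with the GC correction, -0.76 without controls 1 and 3 and -0.83 to -0.31 with a library left out, where the chaperone median ran from -0.57 to -0.027. Core minus base and lid (-1.13) was -1.05 with limma-voom, -1.02 with the replicate block, -0.98 with block and GC correction, -0.52 with the length correction, -0.55 in the window of 1100 to 1700 bases, -1.25 without controls 1 and 3 and -1.21 to -0.93 with a library left out. The median of all genes (0.11) was -0.20 with upper quartile factors, -0.32 with limma-voom and -0.27 with the replicate block, and the core less all genes (-0.45) was then -0.50, -0.070 and -0.034. Of 35 genes named by rule, 30 kept their sign in all 17 alternatives. Psmb7 reversed to -0.081 (limma-voom), -0.20 (upper quartile), -0.023 (stricter filter), -0.229 (sex), -0.0185 (GC) and -0.131 (block and GC). Psmd8 reversed to 0.035 with DESeq2 size factors and 0.016 without controls 1 and 3, Psme3 to 0.028 with sex, and Psme2 to 0.037 and Psmb6 to 0.099 with the length correction. With a library left out, Psmb7 ran from -0.44 to 0.51, Psmd8 from -0.60 to 0.195, Psme2 from -0.84 to 0.082 and Psme3 from -0.50 to 0.039. The cause was not tested. Deviations of same-numbered libraries from their group means had correlations of -0.044, -0.015 and 0.047. With controls 1 and 3 so close to each other, these values cannot decide whether the numbers pair the libraries. With the replicate block on 6 separate libraries 6 genes were higher and 7 lower, against 10 and 7 on them without the block. There were 2 control samples. The coefficient of variation of 104% came from the dispersion common to the 12350 genes tested, not from the proteasome genes alone. How far the spread between libraries limited which differences could be called was not tested.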
